A study of Mus musculus with 26 samples.

Results

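MRTX1719, an inhibitor of the arginine methyltransferase PRMT5, was set against its solvent DMSO in pmel-1 T cells across every gene of the deposited table of T cell counts. The comparison rests on 6 of the 26 libraries of the study, 3 per group, and on 13753 tested genes of the 56562 identifiers listed. The study measured poly(A) RNA from MC38/gp100 mouse colon tumour cells, with and without the Mtap gene, and from pmel-1 T cells, each with DMSO or a PRMT5 inhibitor. The T cells came from transgenic mice, whose T cell receptor in the pmel-1 line recognises the gp100 antigen, and their genotype label is WT. They were cultured in medium with serum, IL-2 and beta-mercaptoethanol. The DMSO libraries and the MRTX1719 libraries share all of this and differ in the compound, given at 0.5 uM for 3 days. Another group of 3 libraries had the PRMT5 inhibitor GSK3326595, also at 0.5 uM for 3 days. In replicates 2 and 3 of this group the compound's number ends in a different digit in the treatment field than in the title. All 3 are treated here as the compound of the titles. The labels do not say how the T cells were sorted or activated, how many mice gave them, or whether the replicates are separate cultures. The p-values therefore reflect no more than the scatter among these libraries, and that scatter may be technical.

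PRMT5 places symmetric dimethyl marks on arginines of histones, Sm proteins of the spliceosome and many other proteins, in a complex with the WD-repeat protein MEP50 (Wdr77). Methylthioadenosine (MTA), a by-product of polyamine synthesis, weakly inhibits PRMT5 and is cleared by the enzyme MTAP. MRTX1719 was developed to bind PRMT5 together with MTA, so that cells lacking MTAP, where MTA builds up, are more sensitive to it than cells that keep MTAP, such as these T cells. GSK3326595 is a PRMT5 inhibitor that does not need MTA. In T cells PRMT5 is known for roles in splicing, proliferation and signalling through receptors that share the common gamma chain.

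Library totals were 13813406 to 20772699 counts. The first principal component of log2 CPM held 64.6% of the variance and placed the MRTX1719 libraries at -1.39 to -1.08, with DMSO at -20.41 to -20.11 and GSK3326595 at 21.37 to 21.64. The second component, with 18% of the variance, set the MRTX1719 libraries apart from the other 6. Levels are given as CPM, the count scaled to a common depth on TMM-scaled library sizes, and a fold change is on the log2 scale with its standard error (SE). Every adjusted p is from edgeR's quasi-likelihood test, fitted on all 9 T cell libraries, with Benjamini-Hochberg adjustment over the genes tested and a threshold of 0.05. A gene is said to have risen or fallen where it passed that threshold.

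Markers of CD8 T cells were expressed in every library. The summed level of 10 such markers, Cd8a, Cd8b1, Lck and chains of the T cell receptor among them, was 11030 to 11340 CPM with DMSO and 11980 to 12620 CPM with MRTX1719, and 7 of the 10 rose. B cell markers summed to 180.5 to 184.6 CPM with DMSO and 148.2 to 159.1 CPM with MRTX1719. Nearly all of that sum was Ighm, at a mean of 178 CPM with DMSO and 148 CPM with MRTX1719, while Ms4a1 had no count in any of the 9 libraries. CD4 T cell markers summed to 130.2 to 133.8 and 104.7 to 113 CPM, carried by Tnfsf8 and Zbtb7b, with Cd4 itself at a mean of 0.365 and 0.61 CPM. Myeloid markers summed to 26.34 to 30.85 and 21.54 to 26.75 CPM, with Lyz2, S100a8 and S100a9 at 0. Markers of NK cells summed to 946.5 to 1018 CPM with DMSO and 1267 to 1288 CPM with MRTX1719. Gzma, which CD8 T cells also make, carried most of that sum, and Ncr1 was at 0. Of the 6 NK markers tested, 4 rose and 0 fell, where 18.9% and 18.5% of all genes tested did. Besides Gzma, those that rose included Eomes, at a mean of 154 and 179 CPM, and Cd160, at 39.05 and 51.13 CPM. Markers of gamma-delta T cells summed to 197 to 198.6 and 210.3 to 222.6 CPM, and 3 of the 4 tested rose. Trdc, the most abundant of them, had a mean of 114 and 117 CPM and did not pass the test. Epithelial and fibroblast markers summed to 36.91 to 47.57 and 36.75 to 41.75 CPM. Pecam1, at a mean of 19.5 and 20.41 CPM, was the largest part of that sum. Of the 8 tested, 2 rose, Epcam and Cdh1, and 1 fell, Col1a2, at a mean of 4.7 and 3.1 CPM. Col1a1, at a mean of 5.41 and 2.92 CPM, did not pass the test. The means of Col3a1, at 6.3 and 4.4 CPM, and Dcn, at 2.37 and 1.44 CPM, were also lower without passing it. In bulk RNA, fewer cells of a type and less RNA per cell cannot be told apart. The part of these marker levels in the results below was not tested.

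MRTX1719 changed 5140 genes (37.4% of the genes tested), 2596 upward (18.9%) and 2544 downward (18.5%). Most changes were small, with a median size of 0.31 on the log2 scale among the changed genes and a median fold change of -0.0008 over all genes tested. At least 2-fold changes were found for 259 genes (1.88%), of which 70 rose (0.509%) and 189 fell (1.37%). The 3 MRTX1719 libraries lay wholly above or below the 3 DMSO libraries for 6283 genes (45.7%). The share called depended on level. By quartiles of mean CPM, from lowest to highest, 3.49%, 12.4%, 23.6% and 35.9% of genes rose. In the same order 7.94%, 17.9%, 23.6% and 24.6% fell. The shares over all genes tested given below are not matched for level, and the part of level in the list counts was not tested.

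**Figure D1:**
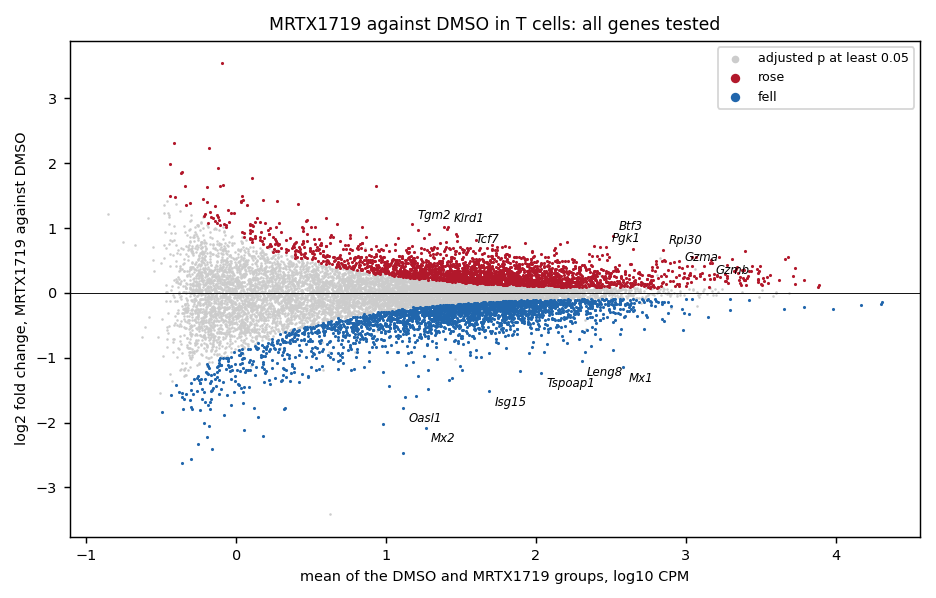
Each point is a gene tested; the x axis is the mean of the DMSO and MRTX1719 groups in log10 CPM and the y axis the log2 fold change of MRTX1719 against DMSO, with 3 libraries per group. Red points rose and blue points fell at an adjusted p under 0.05; the labelled interferon genes Mx2, Oasl1, Isg15 and Mx1 lie at -2.08 to -1.14, and Btf3 lies at 0.88.

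The plot of fold change against level shows interferon-stimulated genes among the largest falls, and a different mixture among the largest rises. Of the 12 genes with the largest falls, chosen by a level of at least 5 CPM and no overlap between libraries, 9 belong to the list of interferon-stimulated genes. The other 3 are Gvin2, an interferon-inducible GTPase of a family with near-identical copies, and the unnamed loci Gm56260 and Gm49759, the latter sharing 19.7% of its exonic bases with the glycolytic gene Pkm. Gvin2 was at 12.9, 26.6 and 26.5 CPM with DMSO and at 4.35, 3.38 and 4.05 CPM with MRTX1719.

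Among the 12 largest rises, chosen by the same rule, were Tgm2, a transglutaminase, Serpine2, a serine protease inhibitor, and Klrd1, the CD94 chain that pairs with NKG2 receptors. Tgm2 was at 9.24, 9.09 and 10.5 CPM with DMSO and at 20.9, 17.4 and 22 CPM with MRTX1719, a rise of 1.06 ± 0.095 on the log2 scale (SE; adjusted p = 8.22e-17). Serpine2 rose from 17.2 ± 0.746 to 33.8 ± 1.99 CPM (SD, n = 3), and Klrd1 from 17.2 ± 0.373 to 34.8 ± 3.11 CPM. The groups do not overlap for these genes because the rule asked for that. Cnih1, which helps proteins leave the endoplasmic reticulum, rose by 1.02 ± 0.079 on the log2 scale, the pteridine reductase gene Qdpr by 0.91 ± 0.07, the Mediator subunit gene Med30 by 0.91 ± 0.087 and the calcium-binding protein gene Tesc by 0.97 ± 0.091. The largest estimate among the rises was that of Gm37376, at 4.75, 4.47 and 3.33 CPM with DMSO and 8.05, 21 and 10.1 CPM with MRTX1719. All of its exonic bases lie opposite Malat1, so its reads are uncertain. Its adjusted p of 0.0324 by edgeR went to 0.0813, 0.0813 and 0.102 without DMSO replicate 1, 2 or 3, to 0.055 without GSK3326595 replicate 1, to 0.0782 with no filter on low counts, to 0.0699 with only the 6 libraries compared and to 0.0807 with a replicate block.

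The smallest p-values among the rises belonged to Btf3, a subunit of the complex that binds nascent polypeptides at the ribosome, and among the falls to Mx1. Btf3 was at 224, 228 and 236 CPM with DMSO and at 418, 434 and 415 CPM with MRTX1719, a rise of 0.88 ± 0.036 on that scale (SE; adjusted p = 1.3e-37). A non-coding gene on the opposite strand covers 22% of its exonic bases. Rbm3, a cold-inducible RNA-binding protein, rose by 0.68 ± 0.035, and the metalloprotease gene Adamts10 by 0.73 ± 0.037. Leng8 fell from 275, 259 and 283 CPM to 133, 128 and 131 CPM, which is -1.06 ± 0.039 on the log2 scale (SE; adjusted p = 1.32e-40). Tspoap1 fell from 153, 151 and 149 CPM to 66.3, 61.3 and 65.8 CPM. Neither of these genes had overlapping groups.

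Interferon-stimulated genes are switched on by type I and type II interferons through factors that include STAT2 and IRF9, and encode antiviral effectors. Of 52 such genes tested, 42 fell with MRTX1719 and 5 rose, with a list median of -0.57 on the log2 scale, where 18.5% of all genes tested fell. Promoters of some of these genes carry copies of an interferon-stimulated response element, whose core was searched here as GAAA, any 2 bases and GAAA again, on either strand, with overlapping matches counted. The sequences below are the 300 bases around the start of 3 members that fell, Isg15, Rsad2 and Ifit1, and of Gbp2, which rose, from 250 bases before to 50 after the start, 5′ to 3′ on the gene's strand, from RefSeq (GRCm38.p6). Capitals mark the matches. They lie at chr4:156200769-156201068 (minus strand) for Isg15, chr12:26456403-26456702 (minus strand) for Rsad2, chr19:34640639-34640938 (plus strand) for Ifit1 and chr3:142620413-142620712 (plus strand) for Gbp2.
Isg15: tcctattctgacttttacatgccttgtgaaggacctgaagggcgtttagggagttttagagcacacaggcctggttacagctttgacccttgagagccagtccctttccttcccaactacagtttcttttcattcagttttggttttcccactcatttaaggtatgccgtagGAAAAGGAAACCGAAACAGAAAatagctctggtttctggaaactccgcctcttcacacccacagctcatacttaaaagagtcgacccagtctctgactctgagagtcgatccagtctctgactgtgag
Rsad2: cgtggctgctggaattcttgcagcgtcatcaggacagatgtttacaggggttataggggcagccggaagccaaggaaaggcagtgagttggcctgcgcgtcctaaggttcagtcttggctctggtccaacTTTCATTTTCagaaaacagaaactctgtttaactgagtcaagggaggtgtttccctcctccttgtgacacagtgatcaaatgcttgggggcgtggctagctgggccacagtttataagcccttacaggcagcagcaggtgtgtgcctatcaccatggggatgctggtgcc
Ifit1: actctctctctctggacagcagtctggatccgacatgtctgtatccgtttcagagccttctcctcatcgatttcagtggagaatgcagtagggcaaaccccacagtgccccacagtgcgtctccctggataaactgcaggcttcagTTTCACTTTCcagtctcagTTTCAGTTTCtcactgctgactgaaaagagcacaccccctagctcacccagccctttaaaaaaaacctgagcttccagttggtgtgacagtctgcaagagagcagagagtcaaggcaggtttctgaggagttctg
Gbp2: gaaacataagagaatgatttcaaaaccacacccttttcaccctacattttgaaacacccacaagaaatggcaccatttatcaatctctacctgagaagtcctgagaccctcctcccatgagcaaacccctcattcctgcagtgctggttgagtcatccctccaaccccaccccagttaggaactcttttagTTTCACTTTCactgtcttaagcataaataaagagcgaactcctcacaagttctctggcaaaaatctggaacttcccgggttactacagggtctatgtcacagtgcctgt

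The Isg15 promoter held 3 overlapping matches, the first beginning at position -78 counted from the start, and the Ifit1 promoter held 2. The Rsad2 and Gbp2 promoters each held 1, at positions -120 and -59, so a promoter of a gene that rose carried the same letters as those of genes that fell. A match was found in 21 of the 37 listed genes with a promoter in the table (56.8%), in 363 of 9524 tested genes (3.81%) and in 1079 of all 27025 promoters (3.99%). Among the listed genes that fell, 16 of 31 held a match, and among those that rose, 3 of 3. Oasl1 and Irf7, which fell, held none in this window. A match is a description of letters, not of a bound factor.

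The largest falls in the list included antiviral effectors. Mx2, a dynamin-like GTPase that restricts viruses, was at 28.2, 27.8 and 33 CPM with DMSO and at 6.67, 7.22 and 7.11 CPM with MRTX1719, or -2.08 ± 0.1 on the log2 scale (SE; adjusted p = 7.49e-32). Isg15, a ubiquitin-like modifier, was at 72.8, 71.1 and 73.3 CPM with DMSO and at 23.8, 26.9 and 25.2 CPM with MRTX1719, a change of -1.51 ± 0.063 (adjusted p = 5.07e-37). Mx1 was at 530, 527 and 524 CPM against 248, 229 and 239 CPM, a change of -1.14 ± 0.036 (adjusted p = 4.42e-46). Mx2 and Isg15 were named under a rule that asked for no overlap, and Mx1, named for its p, had none either. Oasl1 and Oas2, of the family that makes or resembles the makers of 2-5A, the activator of RNase L, fell, with log2 fold changes of -1.77 and -1.59. Rsad2 (viperin), at -1.43, and Cmpk2, at -1.28, also fell, and so did the RNA-binding IFIT members Ifit1, Ifit2 and Ifit3, at -1.31, -1.19 and -1.34. The 3 and 3 libraries did not overlap for 47 of the 52 listed genes, where 45.7% of all genes tested did not.

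Among factors that carry or shape the interferon signal, Stat2 fell from 327, 326 and 340 CPM to 212, 199 and 196 CPM, by 0.71 ± 0.037 on the log2 scale (SE; adjusted p = 2.24e-30). Irf7, the regulator of interferon genes, fell from 205 ± 4.09 to 120 ± 3.57 CPM, and Irf9 from 165 ± 1.97 to 116 ± 7.2 CPM (SD, n = 3). Usp18, which removes Isg15 from proteins and restrains the interferon receptor, fell by 0.69 ± 0.091. The gene of the large ubiquitin ligase Rnf213, outside the list, fell from 425 ± 4.69 to 230.0 ± 8.68 CPM.

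Some listed genes of guanylate-binding proteins, GTPases known for their strong response to interferon gamma, went the other way. Gbp2 was at 57.3, 56.3 and 60.7 CPM with DMSO and at 85.5, 80.2 and 79.4 CPM with MRTX1719, a rise of 0.49 ± 0.047 on the log2 scale (SE; adjusted p = 4.4e-15). Gbp3 rose from 76.7 ± 1.62 to 91.6 ± 4.77 CPM, and Ly6a, a surface antigen of lymphocytes, from 475 ± 25.4 to 535 ± 7.09 CPM. Gbp5 and Gbp7, the other listed members of the family, had log2 fold changes of -0.38 and -0.1. Of the 5 listed genes that rose, 3 did so without DMSO replicate 2 and 3 without MRTX1719 replicate 3. The immunity-related GTPase genes Igtp and Iigp1 had fold changes of -0.08 and -0.07, which did not pass the test.

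GSK3326595 gave the same list a median of -0.67, with 39 members lower and 8 higher than with DMSO, against 26.2% and 26.6% of all genes tested. Both comparisons share the DMSO libraries. In the direct comparison of the inhibitors, 19 members were higher and 16 lower with MRTX1719 than with GSK3326595 at matched dose and time. The shares of all genes tested were 19.3% and 19.7%. Mx2, at 2.76, 2.13 and 2.35 CPM with GSK3326595, was 1.53 ± 0.15 higher on the log2 scale with MRTX1719 (adjusted p = 1.02e-14, edgeR). Gbp2, at 194, 191 and 197 CPM with GSK3326595, was lower with MRTX1719, by a log2 difference of -1.25 (95% interval -1.34 to -1.17). The 2 compounds did not differ past the threshold at Ifit3, with a difference of -0.11 (95% interval -0.28 to 0.07), Ifit2, with -0.07 (-0.22 to 0.09), or Irf9, with -0.01 (-0.1 to 0.07).

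**Figure D2:**
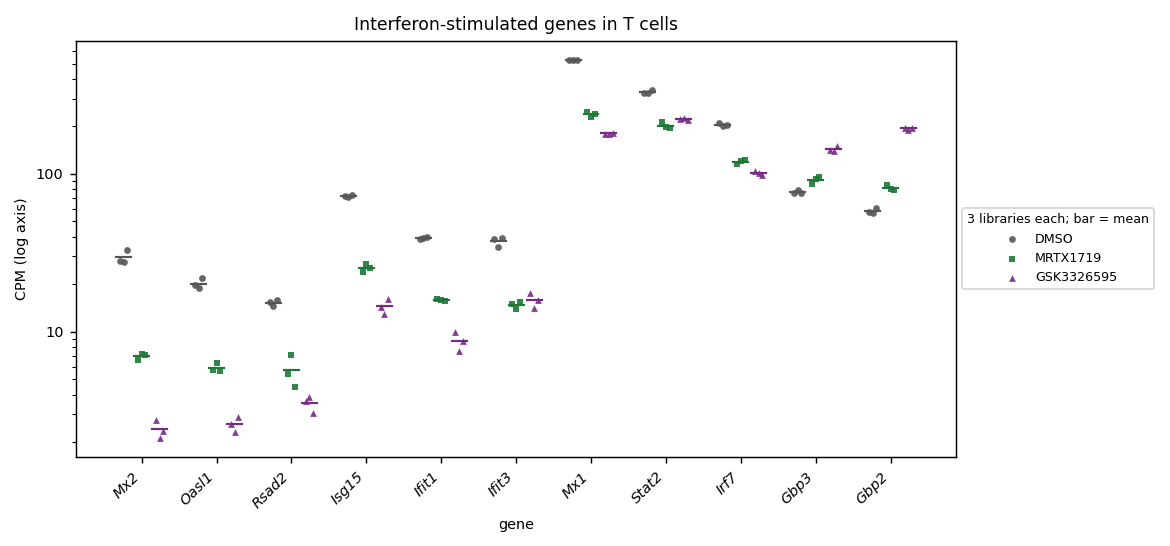
CPM of 11 interferon-stimulated genes on a log axis in each of the 9 T cell libraries; points are libraries (circles DMSO, squares MRTX1719, triangles GSK3326595) and bars are group means of 3. Mx2 falls from a DMSO mean of 29.7 to 7 CPM with MRTX1719, while Gbp2 and Gbp3 lie above DMSO in each library of both inhibitors.

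Sensors of nucleic acids in the cytosol, many of which are themselves interferon-stimulated, moved in part with this list. Of 21 tested, 11 fell and 1 rose, where 18.5% and 18.9% of all genes tested did. Trim25, a ubiquitin ligase of the RIG-I pathway, fell from 67.3, 74.1 and 68.6 CPM to 43.2, 40.7 and 39 CPM, and the RNA sensors Ifih1 (MDA5) and Rigi fell, with log2 fold changes of -0.59 ± 0.082 and -0.45 ± 0.048. The adaptor genes Sting1 and Mavs had fold changes of -0.02 and 0.14, neither past the threshold. MHC class I genes were divided, with 8 of 24 higher and 9 lower, where 18.9% and 18.5% of all genes tested were. Nlrc5, the transactivator of class I genes, fell from 600, 621 and 604 CPM to 478, 481 and 486 CPM, a change of -0.34 ± 0.033 (SE; adjusted p = 7.97e-15). B2m, the light chain, rose from 1038 ± 30 to 1246 ± 29.2 CPM (SD, n = 3), and Tapbpl, a peptide editor, by 0.3 ± 0.045. Reads of the class I heavy chain genes, such as H2-Q7 at -0.4 and H2-T24 at -0.8, may be shared between near-identical copies.

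The gene of the targeted enzyme changed little. Prmt5 was at 225, 224 and 221 CPM with DMSO and at 235, 248 and 246 CPM with MRTX1719, a rise of 0.12 ± 0.037 on the log2 scale (SE; adjusted p = 0.00452), with no overlap. RNA levels do not measure the enzyme's activity. Of 13 genes of the PRMT5 complex and the SMN complex, 5 rose and 0 fell by the edgeR test, where 18.9% and 18.5% of all genes did. Of the 13, 0 were lower at an unadjusted p under 0.05 or by DESeq2. Clns1a, the adaptor that brings Sm proteins to PRMT5, went from 25.6, 25.6 and 26.3 CPM to 34.4, 35.8 and 35.1 CPM, a rise of 0.44 ± 0.067 (adjusted p = 4.34e-08). The SMN-binding protein Strap rose by 0.46 ± 0.042 and Gemin6 by 0.59 ± 0.14. Wdr77 had a change of 0.11 ± 0.076 and Riok1, the other adaptor, one of -0.02 ± 0.037, and neither passed the test. Mtap, which clears MTA, was at 82.6, 75 and 80.4 CPM with DMSO and at 87.4, 83.9 and 83.8 CPM with MRTX1719 (adjusted p = 0.0985).

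Sm and LSm genes encode rings around spliceosomal RNAs, and some Sm proteins are substrates of PRMT5. The list of 21 genes tested also holds proteins outside the rings, such as Snrpc. Of these 21, 17 rose and 2 fell, with a median of 0.29, where 18.9% and 18.5% of all genes tested did. Lsm3 went from 10.9, 11.6 and 11.5 CPM to 17.2, 19.8 and 18.7 CPM, a rise of 0.72 ± 0.095 on the log2 scale (SE; adjusted p = 6.07e-10). Lsm6, Lsm4 and Snrpe rose by 0.53 ± 0.051, 0.48 ± 0.04 and 0.45 ± 0.045. Snrnp70, of the U1 particle, fell by 0.31 ± 0.047. Among 34 genes for SR proteins, hnRNPs and CLK kinases, 12 rose and 9 fell, where 18.9% and 18.5% of all genes tested did. Srsf9, Srsf3 and Hnrnpa1 rose by 0.45, 0.38 and 0.39, while Srsf10, whose protein holds splicing in check after stress, fell from 134, 131 and 130 CPM to 100, 103 and 93.3 CPM. Clk1, a kinase of SR proteins, fell by 0.35 ± 0.042. Gene counts do not measure splicing.

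Mdm4, which restrains p53 and is known for an exon whose splicing depends on PRMT5, was at 243, 247 and 231 CPM with DMSO and at 202, 192 and 202 CPM with MRTX1719, a fall of 0.27 ± 0.038 on the log2 scale (SE; adjusted p = 2.9e-09) with no overlap. Mdm2 fell by 0.16. Trp53 had a fold change of -0.07 (adjusted p = 0.269) and Cdkn1a, the p53 target that encodes p21, one of 0.01 (adjusted p = 0.916). Of 36 p53 target genes, 4 rose and 15 fell, where 18.9% and 18.5% of all genes tested did. Ccng1, Bax, Ddb2 and Ei24 were the 4 that rose, with Ccng1 at 139 ± 7 and 180 ± 4.01 CPM (SD, n = 3). Trp53inp1 fell from 73.4, 69.5 and 70.4 CPM to 48.4, 47.6 and 48.9 CPM, and Bbc3 (PUMA) from 54.9 ± 3.34 to 46.6 ± 0.261 CPM. Others that fell, Sesn2, Btg2 and Plk3, also answer to other stress signals. With GSK3326595, 13 of the 36 were higher than with DMSO, where 26.6% of all genes tested were. The 9 that were lower are a share near the 26.2% of all genes tested. In the direct comparison, 4 were higher and 20 lower with MRTX1719 than with GSK3326595. The shares of all genes tested were 19.3% and 19.7%. Trp53 itself was lower with MRTX1719, by a difference of -0.44, and Mdm4 did not differ past the threshold between the compounds (difference 0.08, 95% interval 0.01 to 0.16, adjusted p = 0.0689).

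Genes of the translation machinery and of the respiratory chain rose together with MRTX1719. Of 51 ribosomal protein genes, 47 rose, with a list median of 0.26, and of 40 nuclear genes of oxidative phosphorylation, 32 rose, with a median of 0.26, where 18.9% of all genes tested rose. By the edgeR test and by DESeq2, 0 members of either list fell. At an unadjusted p under 0.05, 0 ribosomal protein genes and 1 respiratory gene were lower, and 1 respiratory gene fell without MRTX1719 replicate 3. Rpl30 was at 557, 548 and 535 CPM with DMSO and at 830, 897 and 872 CPM with MRTX1719, a rise of 0.66 ± 0.033 on the log2 scale (SE; adjusted p = 2.08e-31). Rps14 and Rps3 rose by 0.52 ± 0.032 and 0.37 ± 0.03. Eef1a1, the factor that brings tRNA to the ribosome, rose from 3878 ± 59.6 to 5702 ± 66.1 CPM (SD, n = 3). Sdhd and Sdha, subunits of succinate dehydrogenase, rose by 0.82 ± 0.062 and 0.57 ± 0.051. Cox7a2, of cytochrome oxidase, went from 73.4, 76.2 and 71.4 CPM to 114, 116 and 116 CPM.

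Short genes as a class stood higher. By quartiles of exonic length, the median fold change over all genes was 0.08, 0.03, -0.01 and -0.08 from the shortest to the longest. In the same order 23.1%, 22.2%, 18.4% and 12.8% of genes rose, and 9%, 13.3%, 21.5% and 30.8% fell. The shortest quartile held 31 of the 51 ribosomal protein genes, 26 of the 40 respiratory genes and 9 of the 21 genes of the Sm and LSm list. The longest quartile held 19 of the 34 genes for SR proteins, hnRNPs and CLK kinases. The shares over all genes tested are not matched for length, and the part of length in the list counts was not tested. Many ribosomal protein genes also have processed copies, and how reads shared with copies were counted is not given in the sources used here.

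The 6 genes that fell by the most CPM were loci that share sequence with mitochondrial genes, led by Gm10925, at 21266 ± 267 CPM with DMSO and 18802 ± 1057 CPM with MRTX1719 (SD, n = 3). Gm10925 shares 100% of its 31-base stretches with mt-Atp6, and Gm28661 shares 100% with mt-Co2, while Gm13340 shares 45.2% with mt-Co1. The mitochondrial genes themselves were not analysed here, so the origin of these reads is uncertain.

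Many genes of DNA replication and mitosis rose to a small degree. Of 46 DNA replication genes, 22 rose and 2 fell, and of 40 mitosis genes, 23 rose and 1 fell, with list medians of 0.13 and 0.17, where 18.9% of all genes tested rose and 18.5% fell. Birc5 (survivin), of the chromosomal passenger complex, was at 64.4, 67.3 and 66.9 CPM with DMSO and at 98.5, 101 and 92.6 CPM with MRTX1719, a rise of 0.56 ± 0.046 on the log2 scale (SE; adjusted p = 3.3e-18). Rpa1, which coats single-stranded DNA, rose by 0.44 ± 0.048, the helicase subunit Mcm5 by 0.33 ± 0.039 and the mitotic kinesin Kif23 by 0.35 ± 0.057. The proliferation marker Mki67 overlapped between groups, at 795 ± 29 and 785 ± 16 CPM (SD, n = 3). Of 34 genes of homologous recombination and the Fanconi pathway, 6 rose, a share near the 18.9% of all genes tested, and 3 fell. Bard1, the partner of Brca1, fell by 0.54 ± 0.11.

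Of 28 genes for effector molecules of cytotoxic T cells and cytokines, 14 rose and 6 fell, where 18.9% and 18.5% of all genes tested did. The members that rose included Gzma and Gzmb, and Tnf was among those that fell. Of the 28, 24 lie in the shortest quartile of exonic length. Gzma was at 806, 783 and 748 CPM with DMSO and at 1033, 1042 and 1027 CPM with MRTX1719, a rise of 0.41 ± 0.033 on the log2 scale (SE; adjusted p = 2.87e-19). Gzmb, at 1333, 1357 and 1324 CPM, rose to 1592, 1493 and 1558 CPM, by 0.21 ± 0.031. Both granzymes thus had no overlap between groups. Gzme rose by 0.55 ± 0.05, Gzmd by 0.37 ± 0.043 and Gzmk by 0.67 ± 0.15. Reads of the neighbouring granzyme genes Gzmd and Gzme may be shared. Perforin (Prf1), which opens the way for granzymes, had a change of 0.04 that did not pass the test (adjusted p = 0.527). Lamp1, a marker of lytic granules, rose by 0.52 ± 0.045 and the granule proteoglycan gene Srgn by 0.37 ± 0.045. Tnf was at 116, 121 and 122 CPM with DMSO and at 80.3, 79.9 and 83.1 CPM with MRTX1719, a fall of 0.56 ± 0.044 (adjusted p = 1.73e-19). The chemokine Ccl5 fell by 0.46 ± 0.051 and Tnfsf10 (TRAIL), an interferon-inducible death ligand, by 0.73 ± 0.11.

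Of 26 genes of memory and stemness, 18 were lower and 1 higher with MRTX1719 than with GSK3326595, where 19.7% and 19.3% of all genes tested were. Against DMSO, 11 rose, where 18.9% of all genes tested did, and the list median was 0.13. Another 5 fell (3 without MRTX1719 replicate 3), a share near the 18.5% of all genes tested. Tcf7, the factor TCF1 that marks stem-like T cells, was at 26.8, 28.5 and 28.8 CPM with DMSO, at 46.1, 41.2 and 47.8 CPM with MRTX1719 and at 112, 109 and 115 CPM with GSK3326595. Its rise with MRTX1719 was 0.69 ± 0.061 on the log2 scale (SE; adjusted p = 5.83e-17), and its difference from GSK3326595 was -1.31 (95% interval -1.41 to -1.21). The chemokine receptors Cxcr3 and Ccr7, of which Ccr7 guides T cells to lymph nodes, rose by 0.44 ± 0.061 and 0.41 ± 0.1. Both were lower with MRTX1719 than with GSK3326595, with differences of -0.71 for Cxcr3 and -1.16 for Ccr7. Klf2 and Id3 had changes of -0.07 and -0.11 that did not pass the test, and Myb fell by 0.42 ± 0.066. For the list as a whole, GSK3326595 had a median of 0.71, with 19 higher and 3 lower than the shared DMSO libraries. Over all genes tested, 26.6% were higher and 26.2% lower with GSK3326595 than with DMSO.

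**Figure D3:**
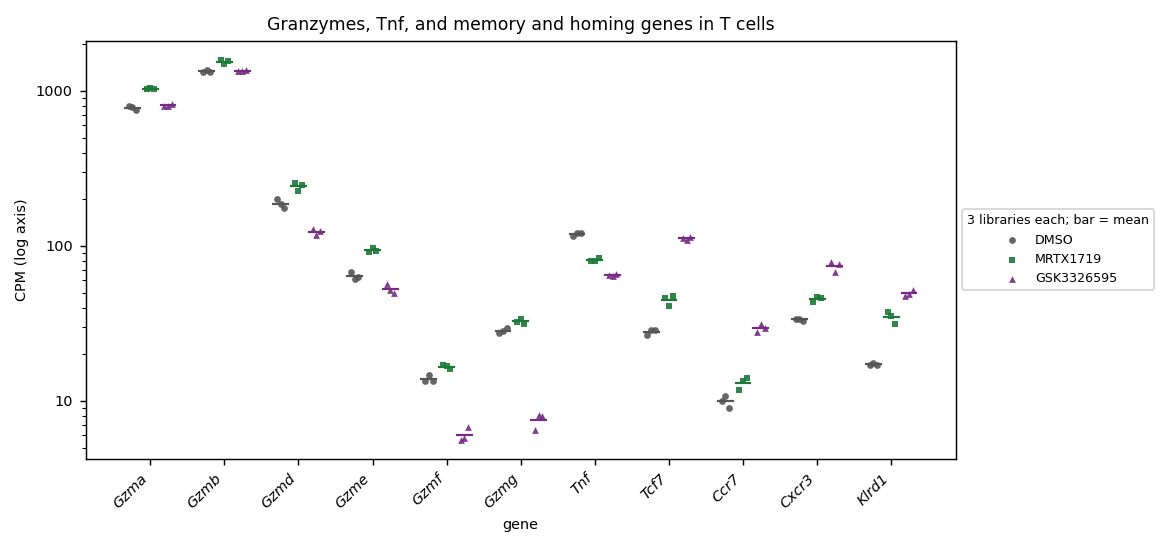
CPM of 6 granzyme genes, Tnf and 4 memory, homing and receptor genes on a log axis in each of the 9 T cell libraries; points are libraries (circles DMSO, squares MRTX1719, triangles GSK3326595) and bars are group means of 3. Gzma lies at 1027 to 1042 CPM with MRTX1719, above both other groups, and Tcf7 with MRTX1719 lies between DMSO and GSK3326595.

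The plot of granzymes and memory genes also shows Klrd1, one of a set of receptors shared with NK cells. Its partner Klrc1 (NKG2A) rose from 2.01, 2.13 and 2.12 CPM to 4.78, 4.19 and 3.75 CPM, and Klrk1 (NKG2D), which costimulates CD8 T cells, from 24.6, 27.2 and 25.5 CPM to 40, 41 and 41.1 CPM, a change of 0.67 ± 0.065 on the log2 scale (SE; adjusted p = 6.82e-15). Among 23 inhibitory receptors and exhaustion genes, 7 rose and 3 fell, where 18.9% and 18.5% of all genes tested did. Ctla4 rose by 0.24 ± 0.063 and Cd160 by 0.38 ± 0.058. Pdcd1 (PD-1), at 8.61, 7.45 and 6.79 CPM with DMSO and 6.6, 8.97 and 8.1 CPM with MRTX1719, overlapped between groups, as did Tox and Havcr2 (TIM-3), and none of the 3 passed the test. Cd28 fell by 0.33 ± 0.05.

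Of 41 genes of signalling through the T cell receptor, 12 rose and 10 fell, where 18.9% and 18.5% of all genes tested did. The kinase Lck was at 550, 550 and 544 CPM with DMSO and at 695, 666 and 716 CPM with MRTX1719, a rise of 0.34 ± 0.033 on the log2 scale (SE; adjusted p = 5.4e-15), and the adaptor Lat rose by 0.35 ± 0.033. The ubiquitin ligase Cblb, a brake on activation, fell by 0.26 ± 0.044, and Rasgrp1, an activator of Ras, by 0.28. Immediate early genes follow receptor signals within minutes. Of 24 such genes, 19 fell and 1 rose, where 18.5% and 18.9% of all genes tested did. Their median was -0.29. Egr1 was at 259, 265 and 265 CPM with DMSO and at 178, 175 and 178 CPM with MRTX1719, a fall of 0.57 ± 0.037 (adjusted p = 3.68e-24). Zfp36, an RNA-binding protein that destabilises cytokine transcripts, had a log2 fold change of -0.61 ± 0.055, Fosl2 one of -0.58 ± 0.053 and Myc one of -0.32 ± 0.039.

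Receptors and kinases of common gamma chain cytokines moved in both directions, with 7 of 28 higher and 13 lower. Over all genes tested, 18.9% were higher and 18.5% lower. Il2rg, the gamma chain, was at 242, 242 and 237 CPM with DMSO and at 210, 193 and 209 CPM with MRTX1719, a fall of 0.24 ± 0.038 on the log2 scale (SE; adjusted p = 1.15e-07) without overlap. A gene on the same strand shares 30.5% of its exonic bases. Il2rb, the beta chain for IL-2 and IL-15, fell from 445, 431 and 437 CPM to 345, 332 and 343 CPM, while Il2ra, the alpha chain, had a change of -0.05 that did not pass the test (adjusted p = 0.345). Jak3, the kinase bound to the gamma chain, rose from 174, 165 and 175 CPM to 211, 209 and 224 CPM, by 0.33 ± 0.039. Downstream, Stat5a, Pim1 and Cish fell, with log2 fold changes of -0.39 ± 0.063, -0.25 ± 0.034 and -0.17 ± 0.036, while Pim2 rose by 0.34 ± 0.039. Il2rg differed between the compounds in direction: it rose with GSK3326595, to 281, 276 and 288 CPM, and the difference of MRTX1719 from GSK3326595 was -0.47 (95% interval -0.54 to -0.4).

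Of 25 transcription factors of effector T cells, 3 rose and 10 fell, where 18.9% and 18.5% of all genes tested did. Of the 25, 11 lie in the longest quartile of exonic length, where 12.8% of genes rose and 30.8% fell. Runx3, which sets the CD8 lineage, fell from 363 ± 16.5 to 322 ± 10.1 CPM (SD, n = 3) and Bhlhe40 by 0.32 on the log2 scale. Ikzf3 and Stat4 rose by 0.28 ± 0.049 and 0.2 ± 0.055. Tbx21 (T-bet) and Id2 had changes of -0.03 and 0.00, neither past the threshold. Of 28 chemokine and homing receptors, 10 rose and 5 fell, the latter a share near the 18.5% of all genes tested. The integrin gene Itgav fell by 0.43 and Cxcr6 rose by 0.22.

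Among the gene lists, ATF4 targets and fatty acid genes had the largest median differences between the inhibitors, 0.83 and 0.6 on the log2 scale. MRTX1719 and GSK3326595 differed at 5376 genes (39.1%), 2660 higher (19.3%) and 2716 lower (19.7%) with MRTX1719, of which 328 differed at least 2-fold (2.38%), 176 higher (1.28%) and 152 lower (1.11%). This is the only pair of compounds compared in these cells, at 0.5 uM and 3 days for both. GSK3326595 itself changed 7260 genes against the shared DMSO libraries (52.8%).

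Targets of ATF4, the factor that raises amino acid synthesis and transport under stress, were higher with MRTX1719 than with GSK3326595 in 25 of 25 cases. Over all genes tested, 19.3% were higher. Asns, asparagine synthetase, was at 178, 182 and 164 CPM with DMSO, at 165, 168 and 168 CPM with MRTX1719 and at 83.9, 77.5 and 79.3 CPM with GSK3326595, a difference between the inhibitors of 1.06 ± 0.043 on the log2 scale (SE; adjusted p = 2.2e-38, edgeR). Against DMSO, Asns, Atf4 itself, Trib3, Slc7a5 and Ddit3 overlapped between groups, with changes between -0.06 and 0.04 that did not pass the test. Of the 25 genes, 3 rose and 12 fell against DMSO, with a median of -0.13, where 18.9% and 18.5% of all genes tested did. Sesn2, which senses amino acid lack, fell from 268 ± 4.59 to 208 ± 7.35 CPM and stood at 105 ± 0.617 CPM with GSK3326595 (SD, n = 3). Psph and Mthfd2, enzymes of serine and one-carbon metabolism, rose by 0.44 ± 0.069 and 0.49 ± 0.042.

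Lipid synthesis showed a similar picture in the direct comparison. Of 24 cholesterol genes, 23 were higher and 1 lower with MRTX1719 than with GSK3326595, with a median difference of 0.45, and of 13 fatty acid genes, 10 were higher and 1 lower. Over all genes tested, 19.3% were higher and 19.7% lower in that comparison. Against DMSO, 5 cholesterol genes rose, a share near the 18.9% of all genes tested. Another 7 fell, where 18.5% of all genes tested did. Insig1, a sterol sensor of the ER, fell by 0.64 ± 0.05 on the log2 scale. Cyp51 and Pmvk, enzymes of the sterol pathway, rose by 0.31 ± 0.042 and 0.33 ± 0.057. Fdps was at 358, 352 and 354 CPM with DMSO, at 334, 354 and 348 CPM with MRTX1719 and at 179, 176 and 182 CPM with GSK3326595. The desaturase Scd1 had the largest difference among the named genes that were higher with MRTX1719 than with GSK3326595, at 39.1, 40.5 and 36.5 CPM with DMSO, 32, 36.2 and 33.9 CPM with MRTX1719 and 5.62, 7.16 and 7.89 CPM with GSK3326595. That difference was 2.31 ± 0.091 (SE; adjusted p = 6.7e-39, edgeR). Of the 13 fatty acid genes, 1 rose and 7 fell against DMSO, where 18.9% and 18.5% of all genes tested did. Fasn and Scd2 were among those that fell, with log2 fold changes of -0.37 ± 0.035 and -0.56 ± 0.034.

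Several glycolysis genes rose with MRTX1719 and stood above their level with GSK3326595. Of 31 genes of glycolysis and the hypoxia response, 11 rose and 4 fell against DMSO (2 without DMSO replicate 2). In the direct comparison, 22 were higher and 3 lower with MRTX1719 than with GSK3326595. Over all genes tested, 18.9% rose and 18.5% fell against DMSO. Between the inhibitors, 19.3% of all genes were higher and 19.7% lower. Pgk1, phosphoglycerate kinase, was at 221, 230 and 216 CPM with DMSO, at 362, 358 and 370 CPM with MRTX1719 and at 257, 241 and 250 CPM with GSK3326595, a rise of 0.71 ± 0.036 on the log2 scale (SE; adjusted p = 1.15e-30). Ldha, lactate dehydrogenase A, rose by 0.49 ± 0.033, Pgam1 by 0.45 and Tpi1 by 0.24 ± 0.037, and Ldha was 0.55 ± 0.033 higher than with GSK3326595. The growth factor Vegfa fell from 24.1, 22.3 and 24.1 CPM to 19.2, 17.1 and 17.5 CPM, and the lactate exporter Slc16a3 by 0.24 ± 0.068. Genes of ribosome biogenesis rose in 11 of 31 cases and fell in 3, with Npm1 higher by 0.41 ± 0.031 and Nop10 by 0.67 ± 0.067.

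**Figure D4:**
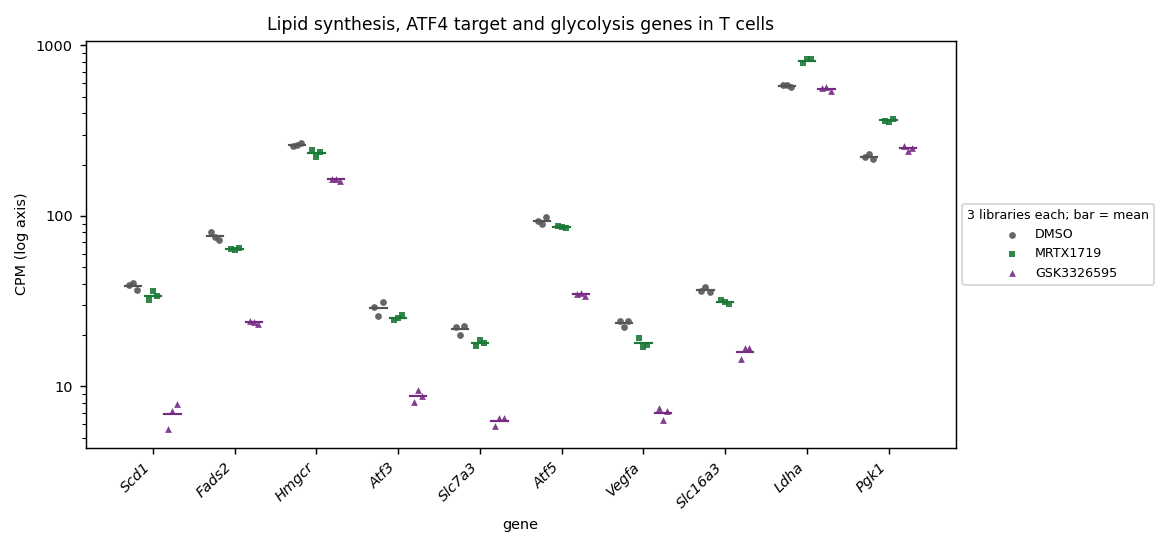
CPM of 10 lipid, ATF4 target and glycolysis genes on a log axis in each of the 9 T cell libraries; points are libraries (circles DMSO, squares MRTX1719, triangles GSK3326595) and bars are group means of 3. Scd1 lies at 32 to 36.2 CPM with MRTX1719 and at 5.62 to 7.89 CPM with GSK3326595, and Pgk1 is highest with MRTX1719, at 358 to 370 CPM.

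Batf3, a transcription factor gene, was another of those named for the size of their difference between the inhibitors. It was at 37.3, 38.1 and 38.1 CPM with DMSO, 30.8, 31.4 and 33.4 CPM with MRTX1719 and 7.52, 6.2 and 7.19 CPM with GSK3326595, a difference of 2.19 ± 0.088 on the log2 scale (SE; adjusted p = 1.49e-38, edgeR). Tnfrsf8 (CD30) differed by 2.08 ± 0.087 and the granzyme Gzmg by 2.12 ± 0.089, both higher with MRTX1719. In the other direction the chemokine Xcl1 was at 0.725, 1.16 and 1.09 CPM with MRTX1719 and at 6.29, 6.39 and 4.74 CPM with GSK3326595, a difference of -2.51 ± 0.24. Cd7, a T cell surface protein, and the transcription factor Pou6f1 were lower with MRTX1719, with differences of -1.59 and -1.43. Leng8 was lower with MRTX1719 than with GSK3326595, with a difference of -0.49 ± 0.039. The compounds did not differ past the threshold at the polyamine enzyme Odc1, with a difference of 0.03 (95% interval -0.04 to 0.11), at Manf, an ER stress factor, with -0.02 (-0.11 to 0.06), at Clk1, with 0.00 (-0.08 to 0.09), or at Lat, with 0.00 (-0.07 to 0.06).

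**Figure D5:**
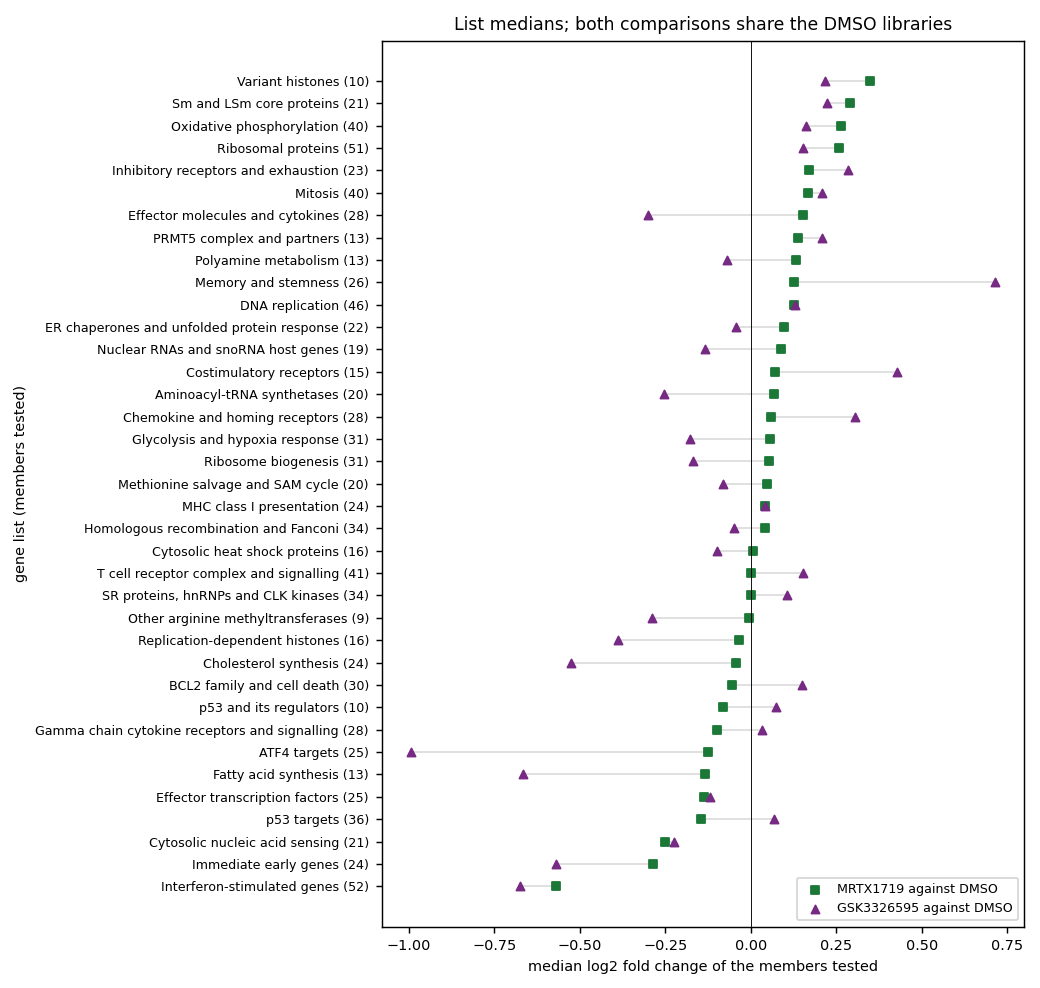
Median log2 fold change of each gene list other than the cell type markers (members tested in parentheses) for MRTX1719 against DMSO (squares) and GSK3326595 against DMSO (triangles); both comparisons share the DMSO libraries. Among the lists plotted, for MRTX1719 the interferon-stimulated genes are lowest, at -0.57, and variant histones highest, at 0.35, while for GSK3326595 the ATF4 targets lie at -0.99 and the memory genes at 0.71.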

How the data were processed

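RNA of pmel-1 T cells treated with DMSO, MRTX1719 or GSK3326595 was sequenced as poly(A) libraries made with a directional kit on an Illumina NovaSeq instrument, per the labels' protocols. The authors deposited raw counts per gene identifier and a table of normalized counts, here called a signal. TopHat2 2.0.10, Bowtie2 2.1.0, DESeq 1.18.0 and the build GRCm39 (mm39) are named per the submitters' processing notes; which program and annotation gave the counts, and with which strand setting, is not given in the sources used here. The deposited normalized signal was, within 1e-06, the count over a library's size factor, which tied 15287 of its 15300 entries to 1 identifier. It was used only to check gene symbols, and 14360 of 14844 names present in both sources were the same.

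The counts were tested with edgeR 4.0.16 (R 4.3.3, limma 3.58.1): TMM scaling, filterByExpr, robust quasi-likelihood fit on 9 libraries, Benjamini-Hochberg adjustment, threshold 0.05. The SE is the log2 fold change divided by the square root of its F value. Totals of 13813406 to 20772699 counts per library set the precision. On simulated counts for MRTX1719 against DMSO, 86 of 99 genes changed by 1 on the log2 scale were recovered, 59 of 97 changed by 0.5, and 13 of 13222 unchanged genes were called. The simulation changed far fewer genes than the 5140 called in the data, so its shares do not give the recovery in the data. DESeq2 1.42.0, other size factors, no filter, fewer libraries and a replicate block were the alternatives.

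Genes were named by rule: the 12 highest and lowest fold changes with at least 5 CPM in the higher group and no overlap, the 6 smallest p-values and largest CPM changes per direction, the 8 highest and lowest between the inhibitors, up to 8 changed members per list, members that define a list, and the PRMT5 and p53 genes. Members and lists were chosen with earlier results of these data known. Exonic lengths and overlaps came from a GRCm38 annotation and promoters from RefSeq, by gene only. The tumour cell libraries were not used here.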

Additional observations from a re-analysis of the deposited data

How the results depend on the processing

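Between DMSO and MRTX1719, 5140 genes changed by edgeR, 5158 with DESeq2's size factors, 4561 with no filter on low counts, 5180 with only the 6 libraries compared, 4044 by DESeq2, and 4385 to 5210 when any 1 of the 9 libraries was left out. With no filter 56.1% of the changed genes were higher, against 50.5%. The count of genes changed at least 2-fold was 259 by edgeR and 134 by DESeq2, and between the inhibitors it was 328 and 202; the cause was not tested. The replicate numbers share no stated origin, so the main fit used no pairing. Deviations of same-numbered libraries correlated at -0.09 to 0.074 and those of other numbers at -0.104 to 0.079. Such values cannot exclude a shared origin. With a replicate block 5036 genes changed against DMSO and 5265 between the inhibitors. Changes of single genes were followed for the genes named by rule and for all other members of the gene lists. Of 597 such changes against DMSO, 464 passed the threshold under every alternative with a value, and of 616 between the inhibitors, 494. No value reversed its direction. With 3 libraries per group of unstated origin, small changes can reflect technical spread. Changes of 0.5 on the log2 scale were recovered in 60.8% of simulated cases. The simulation changed far fewer genes than were called in the data, so that share does not give the recovery in the data.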

Other observations

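Of 10 variant histone genes, whose products are made outside S phase, 6 rose and 0 fell by edgeR and by DESeq2, with 0 lower at an unadjusted p under 0.05. H2az2, an H2A.Z gene, was at 25.7, 27 and 27.3 CPM with DMSO and at 43, 46.1 and 39.8 CPM with MRTX1719, a rise of 0.69 ± 0.064 on the log2 scale (SE; adjusted p = 8.73e-16). H2az1 rose by 0.37 ± 0.038 and H3f3a, an H3.3 gene, by 0.49 ± 0.045. Of the 10 genes, 7 lie in the shortest quartile of exonic length. Of 16 replication-dependent histone genes, 3 rose, a share near the 18.9% of all genes tested, and 2 fell, H1f2 by 0.37 ± 0.08. Over all genes tested, 18.5% fell. Transcripts of these histone genes mostly lack a poly(A) tail and are poorly sampled by these libraries.

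Genes of protein folding and of polyamine metabolism were mixed. Of 22 genes of the unfolded protein response, 11 rose and 6 fell, where 18.9% and 18.5% of all genes tested did. Ern1, the sensor IRE1, was at 7.07, 6.18 and 6.79 CPM with DMSO and at 3.91, 3.26 and 3.11 CPM with MRTX1719, and fell by 0.98 ± 0.17 on the log2 scale, and Xbp1, its target, fell by 0.21 ± 0.042, while the secreted ER factor gene Manf rose by 0.57 ± 0.044. Of the heat shock genes listed, Stip1, a cochaperone of HSP90, rose by 0.56 ± 0.049 and Hspe1, of the mitochondrial chaperonin, by 0.48 ± 0.039. Odc1, the first enzyme of polyamine synthesis, was at 212, 216 and 219 CPM with DMSO and at 301, 305 and 323 CPM with MRTX1719, a rise of 0.52 ± 0.037, and Oaz1, its antizyme, rose by 0.35 ± 0.036. Among long nuclear RNAs, Malat1 rose by 0.38 ± 0.031 and Neat1 fell by 0.42 ± 0.037.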
